A study of Drosophila melanogaster with 2 samples.

Results

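The last steps of mitochondrial respiration are carried out by complex III (ubiquinol-cytochrome c reductase), complex IV (cytochrome c oxidase) and ATP synthase. The genes for these enzymes were followed in RNA from adult Drosophila melanogaster heads. Members were taken by FlyBase symbol: every UQCR-, COX-plus-digit and ATPsyn gene, the mitochondrially encoded mt:Co, mt:Cyt-b and mt:ATPase genes, and Cyt-c1, Cyt-c-p, RFeSP, ox, levy, cype, blw and sesB. The rule gave 54 genes, 48 in the nucleus and 6 in mitochondrial DNA, set against 12083 genes with reads in either library. Of the 54 members, 49 were listed in at least 1 library, and 39 had at least 50 reads summed over both libraries, 33 nuclear and 6 mitochondrial. The 5 members with no row under their current FlyBase identifier were Cyt-c-p, COX6AL2, COX7CL, ATPsynbetaL and ATPsynGL. Rows under older identifiers were not searched, and 496 of the 12083 identifiers had no matching symbol. The cytochrome c gene may be among those 496, and it is not analysed here.

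Both libraries came from heads of the white-eyed laboratory strain w1118. The sucralose group ate the control food with added sucralose, a sweet chlorinated sugar derivative, for 6 days, and the control group ate the control food alone over the same time. Animals were recorded as 4 to 7 days old when feeding started and 10 to 14 days old when collected. The upper ages do not match 6 days of feeding exactly. The labels give no dose, sex, number of heads or hour of collection. With 1 library per diet there is no spread between replicates, so no test of the diets was possible and no p-value is given. Every fold below sets the sucralose library against the control library after scaling for depth, and its 95% interval is an exact binomial interval that covers counting error only. The libraries held 10.4 M (sucralose) and 10.3 M (control) unique reads.

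As background, complex III passes electrons from ubiquinol to cytochrome c while moving protons across the inner membrane, complex IV passes them on to oxygen, and ATP synthase uses the returning protons to make ATP. Each of these enzymes mixes subunits from both genomes: mitochondrial DNA supplies cytochrome b, the catalytic core of complex IV and a pair of membrane subunits of ATP synthase, and nuclear genes supply the rest. The ADP/ATP carrier then trades the new ATP for cytosolic ADP. In the fly head, users of much ATP include photoreceptors and neurons, which pump ions continuously, and muscle.

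All 39 members over the 50-read floor had lower scaled counts in the sucralose library, mitochondrial genes by more than nuclear ones. Differences below 0 were also found in 50.4% of the 8889 genes over that floor, whose median difference was 0.00 on the log2 scale of CPM (reads scaled to library depth) plus 0.5. The median over the 33 nuclear members was -0.29 and that over the 6 mitochondrial members -0.61. Of the nuclear members, 19 were at least 1.2-fold lower, 14 lay within 1.2-fold and none was as much higher; across all genes over the floor the shares were 15.0% lower and 11.9% higher. That share was 11.3% among the 3788 genes with at least 1000 summed reads and 24.8% among the 322 of those whose gene model spans at most 1000 bases, the class nearest to most nuclear subunits. At the 1.5-fold mark, which 4.12% of all genes passed downward, none of the 33 nuclear members and 4 of the 6 mitochondrial members were lower. The 1.2-fold and 1.5-fold marks were read on the log2 scale with the added 0.5. Cell type markers differed as well: in sum, muscle markers were 1.31-fold, glial markers 1.60-fold and gut markers 61.2-fold lower with sucralose, and photoreceptor markers 1.42-fold higher. Within the glial and photoreceptor lists the markers differed by unequal amounts, as given below. In bulk RNA fewer cells of a type cannot be told apart from less RNA per cell. The gut markers had 45 reads with sucralose and 2701 in the control, and the source of these reads in head RNA is not known.

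**Figure D1:**
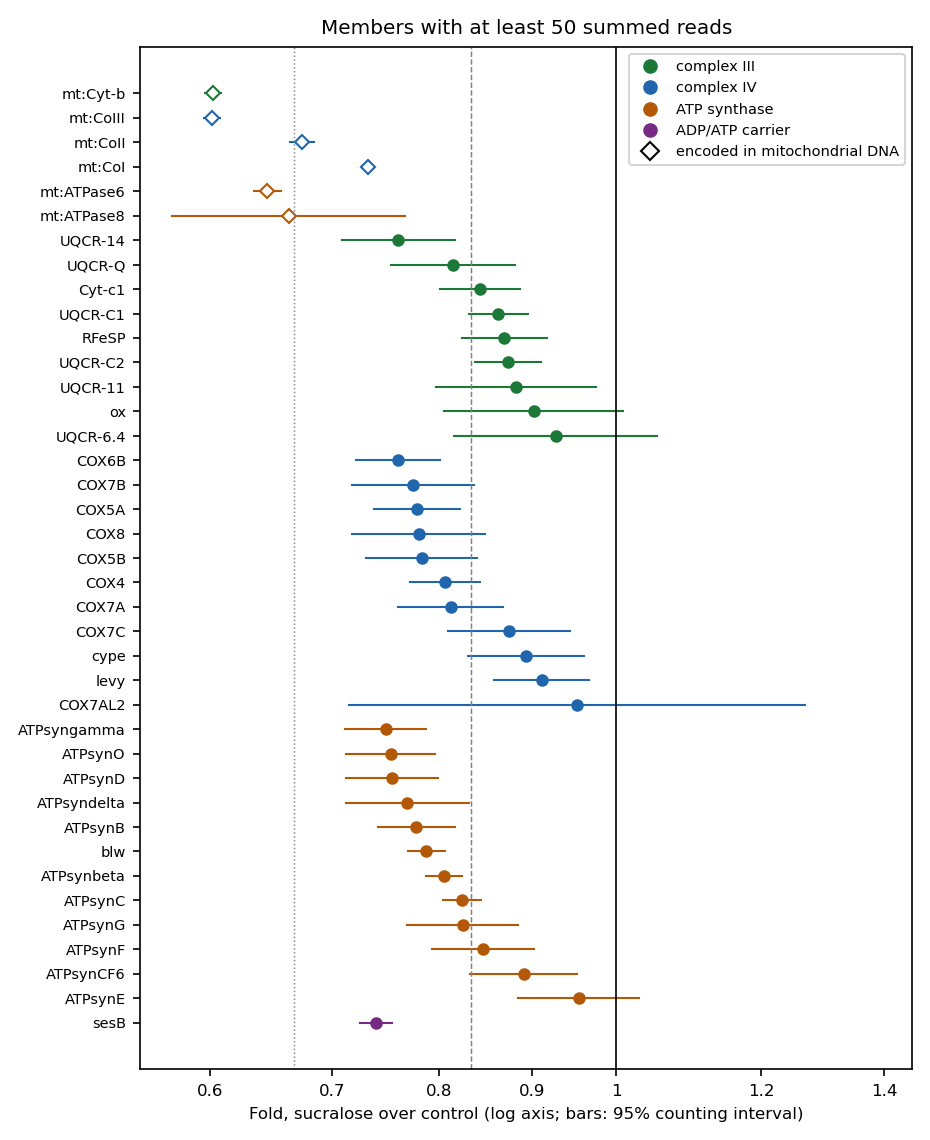
Fold of scaled counts, sucralose over control, on a log axis for the 39 members with at least 50 summed reads; bars are 95% counting intervals, the dashed line marks 1.2-fold lower and the dotted line 1.5-fold lower. All points lie left of 1, and the 6 mitochondrially encoded genes (open diamonds) lie left of every nuclear gene.

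Apart from mt:ATPase8, the mitochondrially encoded messengers were the most abundant members, in reads and per length, in both libraries. Together the 6 took 3.23% of reads in the sucralose library and 4.80% in the control library, or 337127 and 492849 reads, a sum 1.49-fold lower with sucralose (1.48 to 1.5). mt:CoI, the catalytic subunit of complex IV, was the third most counted gene of the sucralose library and the second of the control library.

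mt:CoI had 170775 reads (10661 RPKM, a level per gene length and library depth) with sucralose and 228988 reads (14517 RPKM) in the control, 1.37-fold lower (1.36 to 1.38). mt:CoII, which receives electrons from cytochrome c, had 27689 reads (3876 RPKM) with sucralose and 40326 reads (5733 RPKM) in the control, 1.48-fold lower (1.46 to 1.51). mt:CoIII had 59933 reads (7283 RPKM) with sucralose and 97727 reads (12061 RPKM) in the control, 1.66-fold lower (1.65 to 1.68). So the 3 core subunits of complex IV, which assemble together, were lower by unequal amounts in these libraries: the fold of mt:CoIII was 0.822 times that of mt:CoI (0.813 to 0.832) and 0.893 times that of mt:CoII (0.877 to 0.910). These ratios do not depend on how the libraries are scaled.

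The cytochrome b gene mt:Cyt-b, at the heart of complex III, had 56642 reads (4777 RPKM) with sucralose and 92228 reads (7899 RPKM) in the control, 1.66-fold lower (1.64 to 1.68). mt:ATPase6, the proton-channel subunit of ATP synthase, had 21776 reads (3093 RPKM) with sucralose and 33118 reads (4778 RPKM) in the control, 1.55-fold lower (1.52 to 1.58). Its small neighbour mt:ATPase8 had 312 reads (185 RPKM) with sucralose and 462 reads (278 RPKM) in the control, 1.51-fold lower (1.30 to 1.75). mt:ATPase8 and mt:ATPase6 overlap on the genome and are carried by a shared messenger, yet the RPKM of mt:ATPase8, whose gene model is only 162 bases long, was far below that of mt:ATPase6 in both libraries. Ordered by fold, mt:CoI differed least, then came mt:CoII, mt:ATPase8, mt:ATPase6, mt:Cyt-b and mt:CoIII. mt:ATPase8 could not be told from its neighbours in that order (ratio of its fold to that of mt:CoII 0.984, 0.851 to 1.14; ratio of the fold of mt:ATPase6 to its own 0.974, 0.843 to 1.13), nor mt:CoIII from mt:Cyt-b (0.999, 0.984 to 1.01), while the other adjacent steps exceeded counting error.

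Along the mitochondrial genome, the genes mt:CoI, mt:CoII, mt:ATPase8, mt:ATPase6 and mt:CoIII follow each other on the same strand, apart from transfer RNA genes. In that order they were 1.37-fold, 1.48-fold, 1.51-fold, 1.55-fold and 1.66-fold lower. The next coding gene, mt:ND3 of complex I, broke the run at 1.36-fold lower (1.28 to 1.44), and the gene before it, mt:ND2, was 2.22-fold lower (2.06 to 2.41). The 7 complex I genes of mitochondrial DNA were all at least 1.2-fold lower and 4 of them at least 1.5-fold lower, with a median difference of -0.74. Of all genes over the floor, 15.0% and 4.12% passed these marks. Summed, the 6 members and the 7 complex I genes were 1.49-fold and 1.68-fold lower, a ratio of folds of 1.13 (1.11 to 1.14). Neither mitochondrial ribosomal RNA was listed in either library.

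**Figure D2:**
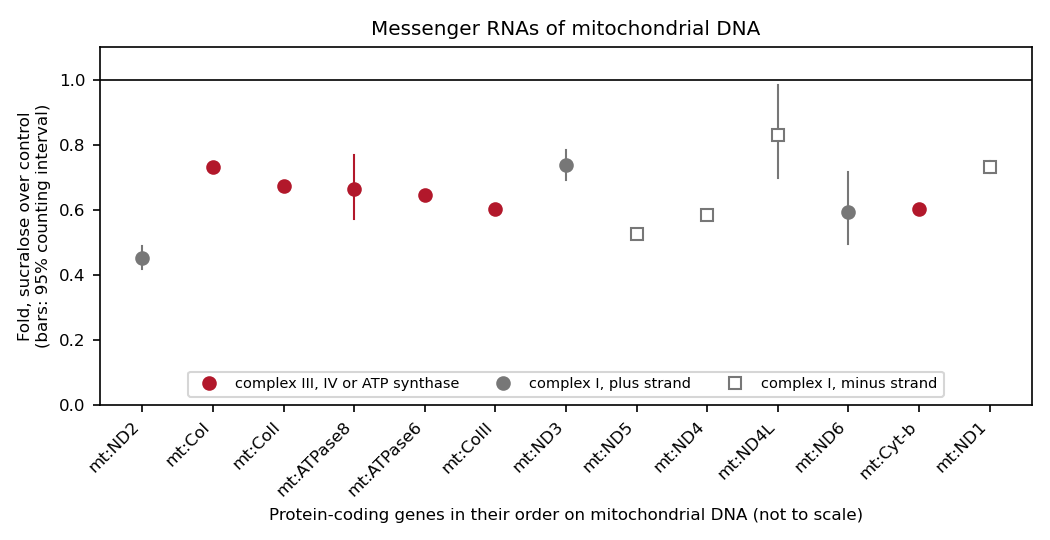
Fold of scaled counts, sucralose over control, for the 13 protein-coding genes of mitochondrial DNA in their genomic order, with 95% counting intervals (smaller than the symbol where no bar shows). The 6 members are red; from mt:CoI to mt:CoIII the point values step down, and all 13 genes lie below 1.

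Nuclear subunits of complex III differed least. Every one of the 9 above the read floor was below 0, beside 50.4% of all genes over the floor, and the median difference was -0.20. The 1.2-fold mark was passed downward by 2 of the 9, beside 15.0% of all genes over the floor. Among genes with at least 1000 summed reads and a model of at most 1000 bases that share was 24.8%. The count of 2 is thus close to these shares. UQCR-C1, a large core protein on the matrix side, had 5183 reads (278 RPKM) with sucralose and 5896 reads (322 RPKM) in the control, 1.16-fold lower (1.12 to 1.2). Its partner UQCR-C2 had 4267 reads (243 RPKM) with sucralose and 4793 reads (277 RPKM) in the control, 1.14-fold lower (1.10 to 1.19). Cyt-c1, the haem protein that hands electrons to cytochrome c, had 2897 reads (183 RPKM) with sucralose and 3372 reads (216 RPKM) in the control, 1.19-fold lower (1.13 to 1.25). These core proteins and the Rieske iron-sulphur protein RFeSP (2557 reads with sucralose, 2887 in the control, 1.15-fold lower) thus sat within a narrow range. The small accessory subunits spread more widely. UQCR-14 had 1370 reads with sucralose and 1767 in the control, the largest difference of the group at 1.31-fold lower (1.22 to 1.41), and UQCR-Q was 1.23-fold lower (1.14 to 1.33). At the other end UQCR-6.4, with 476 reads with sucralose and 504 in the control, was 1.08-fold lower with an interval that spans 1 (0.950 to 1.23), and the interval of ox, with 599 and 652 reads, did so too (1.11-fold lower, 0.991 to 1.24). UQCR-11 was 1.13-fold lower (1.03 to 1.25).

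Of the complex III genes, UQCR-14 shares all its annotated exon bases with CG32576 and UQCR-6.4 shares 40.5% with POSH, both on the opposite strand, so some of their reads may belong to those genes. CG32576 itself had 97 reads with sucralose and 90 in the control, and POSH had 220 and 191.

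Nuclear subunits of complex IV surround the mitochondrial core and tune and stabilise it. The 11 above the read floor were all below 0, for a median of -0.31. The 1.2-fold mark was passed downward by 7, beside 15.0% of all genes over the floor. COX4, the most counted of them, had 3615 reads (311 RPKM) with sucralose and 4397 reads (384 RPKM) in the control, 1.24-fold lower (1.19 to 1.30). COX6B had 2518 reads (327 RPKM) with sucralose and 3249 reads (429 RPKM) in the control, the largest difference of the group at 1.32-fold lower (1.25 to 1.39). COX5A had 2395 reads (315 RPKM) with sucralose and 3018 reads (403 RPKM) in the control, 1.28-fold lower (1.22 to 1.36). COX7B, COX8, COX5B and COX7A lay close to these, between 1.23-fold and 1.29-fold lower. A second set differed less: COX7C was 1.14-fold lower (1.06 to 1.24), cype, the fly subunit VIc, 1.12-fold lower (1.04 to 1.21), and levy, the fly subunit VIa, 1.10-fold lower (1.03 to 1.17), with 2098 reads for levy with sucralose and 2260 in the control. COX7AL2, a relative of COX7A, was the least different of the group, with 99 reads (11.0 RPKM) with sucralose and 102 reads (11.5 RPKM) in the control (1.05-fold lower, 0.789 to 1.40).

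The nuclear genes of ATP synthase were mostly lower by about as much as those of complex IV, with the smallest differences in ATPsynE, ATPsynCF6 and ATPsynF. The 12 above the read floor were all below 0, for a median of -0.33. Of them, 9 were past the 1.2-fold mark, beside 15.0% of all genes over the floor. ATPsynbeta, the catalytic subunit of the soluble head, had 13574 reads (642 RPKM) with sucralose and 16534 reads (795 RPKM) in the control, 1.24-fold lower (1.21 to 1.27). Its partner blw, the alpha subunit, had 12428 reads (519 RPKM) with sucralose and 15476 reads (657 RPKM) in the control, 1.27-fold lower (1.24 to 1.30). ATPsynC, which forms the rotating ring in the membrane, had 12422 reads (664 RPKM) with sucralose and 14798 reads (803 RPKM) in the control, 1.21-fold lower (1.19 to 1.24). Alpha, beta and ring subunits are present in several copies per enzyme, and they were the highest of the nuclear ATP synthase genes per length in both libraries. ATPsyngamma, the rotor shaft and a single-copy subunit, had 2626 reads (180.5 RPKM) with sucralose and 3442 reads (240.3 RPKM) in the control, the largest difference of the group at 1.34-fold lower (1.27 to 1.41). ATPsyndelta, also in the central stalk, was 1.30-fold lower (1.2 to 1.40), with 35.6% of its annotated exon bases shared with CG2962 on the opposite strand. That annotation holds 3817 exon bases of ATPsyndelta and the deposited gene model 978. The share of the counted model is thus not known.

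In the peripheral stalk, which holds the head still against the rotor, ATPsynO, ATPsynD and ATPsynB were 1.33-fold, 1.33-fold and 1.29-fold lower, while ATPsynCF6 was 1.12-fold lower (1.05 to 1.2). The membrane accessory subunits, which help join the enzyme into dimers, differed less in sum than the head and central stalk. This did not set each of them apart: ATPsynG lay level with the ring subunit ATPsynC, and ATPsynCF6 differed less than ATPsynG and ATPsynF. ATPsynG was 1.21-fold lower and ATPsynF 1.18-fold lower. ATPsynE had 1343 reads (194 RPKM) with sucralose and 1381 reads (203 RPKM) in the control, 1.05-fold lower with an interval that spans 1 (0.972 to 1.13). Summed, the 3 membrane accessory genes were 1.15-fold lower and the 4 genes of the head and central stalk 1.26-fold lower, a ratio of folds of 1.10 (1.05 to 1.14).

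sesB, the ADP/ATP carrier, had 17056 reads (883 RPKM) with sucralose and 22633 reads (1189 RPKM) in the control, the largest difference of any nuclear member over the floor at 1.35-fold lower (1.33 to 1.38). It was the most counted nuclear member in both libraries, and its fold was 0.921 times that of the summed ATP synthase genes (0.900 to 0.942). The adjoining carrier gene Ant2, which shares 5.08% of the annotated exon bases of sesB, had 33 reads with sucralose and 29 in the control.

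**Figure D3:**
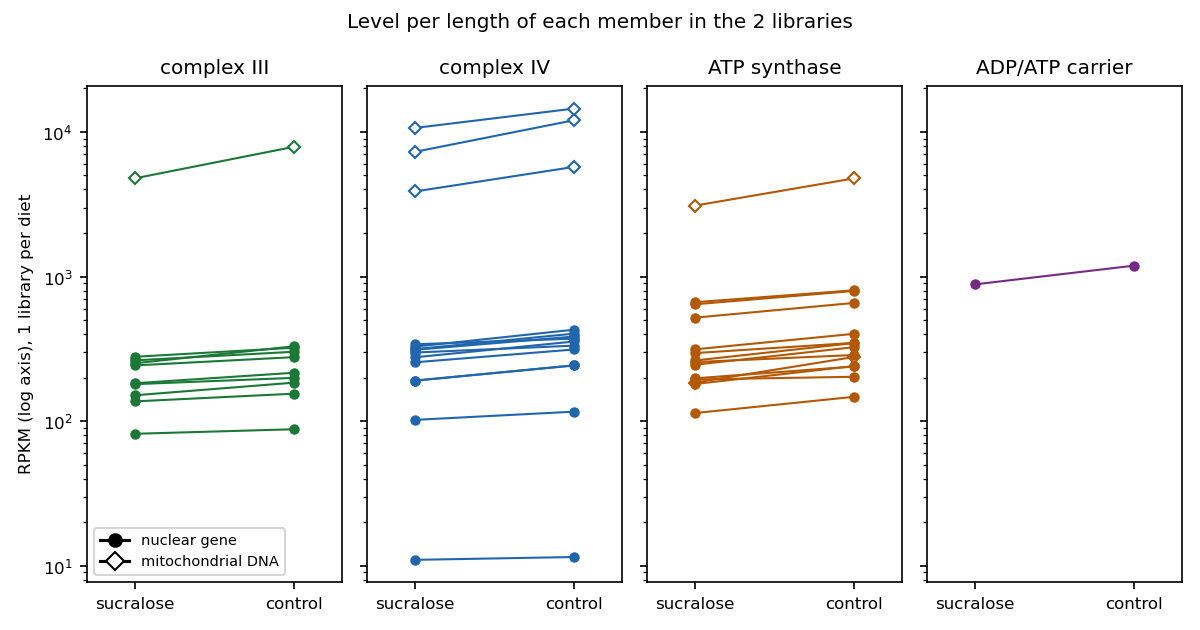
Deposited RPKM of each member over the 50-read floor in the sucralose (left) and control (right) library, on a log axis, by enzyme. The open diamonds are mitochondrially encoded; all but mt:ATPase8 (185 and 278 RPKM) lie between 3093 and 14517 RPKM in both libraries, and each line is lower at the sucralose end.

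Between the enzymes, the nuclear genes of complex III differed less than those of the other two. Summed over listed members, nuclear genes were 1.17-fold lower for complex III (19270 reads with sucralose, 22115 in the control; 1.15 to 1.19), 1.23-fold lower for complex IV (18681 and 22566; 1.21 to 1.26) and 1.25-fold lower for ATP synthase (55695 and 68048; 1.23 to 1.26). The ratio of folds was 1.05 for complex III over complex IV (1.02 to 1.08) and 1.06 for complex III over ATP synthase (1.04 to 1.09). Complex IV and ATP synthase could not be told apart, with a ratio of 1.01 (0.989 to 1.03). Across the 32 nuclear members over the floor other than COX7AL2, the difference had a Pearson r of -0.38 with log2 summed reads and -0.21 with gene length; the points share both libraries and are not independent.

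The gap between the genomes was widest within complex III, where the nuclear genes differed least and mt:Cyt-b was among the genes that differed most. The fold of mitochondrial over that of nuclear genes was 0.705 for complex III (0.690 to 0.720), 0.850 for complex IV (0.834 to 0.868), 0.804 for ATP synthase (0.787 to 0.820) and 0.836 for all members (0.829 to 0.844). There were 3.05 mitochondrial reads for every nuclear read among the members with sucralose and 3.64 in the control. Per length, the median mitochondrial member stood at 4326 RPKM with sucralose and 6816 RPKM in the control, and the median nuclear member at 255 RPKM and 313 RPKM, so the ratio of medians was 17.0 with sucralose and 21.8 in the control. All 6 mitochondrial members differed by more than sesB, the nuclear gene that differed most, although the interval of mt:ATPase8 reaches into the range of nuclear genes and that of mt:CoI (1.36 to 1.38) overlaps that of sesB.

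**Figure D4:**
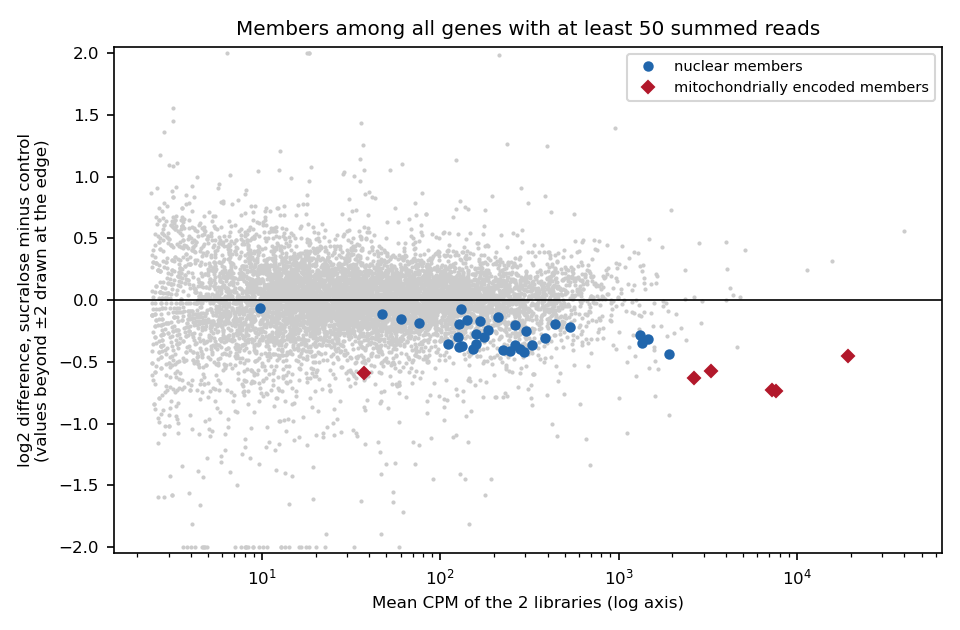
Mean CPM of both libraries (log axis) against the log2 difference, sucralose minus control, for the 8889 genes with at least 50 summed reads; values beyond 2 either way are drawn at the edge. The 33 nuclear members (blue) form a band just below 0 between -0.07 and -0.44, and the 6 mitochondrial members (red) lie between -0.45 and -0.73.

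The genes named as relatives of these subunits had almost no reads in heads. Of 15 such genes, whose symbols end in L or L2, 11 were listed and 10 of these had at most 7 reads in either library. Together the 10 held 13 reads with sucralose and 18 in the control. COX4L had 2 reads with sucralose and 0 in the control (a count of 0 allows up to 3 reads, or 0.293 CPM), where COX4 had 3615 and 4397 reads. COX5BL had 2 and 7 reads, where COX5B had 1449 and 1815, and all annotated exon bases of COX5BL are shared with Trmt6. COX7AL2 was the exception, at 5.24% of the reads of the pair it forms with COX7A. Male germline markers, counted for comparison, had 35 reads with sucralose and 28 in the control over the 4 of 6 listed. The genes bam and dj had no row under their current identifiers.

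Genes that work beside the members differed by steps of their own. Of 32 nuclear complex I genes over the floor, 31 were below 0 and 9 at least 1.2-fold lower (median -0.19). Across all genes over the floor, 50.4% were below 0 and 15.0% at least 1.2-fold lower. The latter share was 24.8% among well-counted genes with short models, close to that of complex I. ND-ACP, the acyl carrier protein, was 1.40-fold lower (1.29 to 1.53). The most counted complex I gene, ND-75, was 1.11-fold lower (1.06 to 1.15). Summed, complex I differed less than the nuclear members, with a ratio of folds of 0.909 for members over complex I (0.895 to 0.924). In complex II, 3 of 4 genes were below 0 and 2 at least 1.2-fold lower (median -0.21). SdhC, a membrane anchor subunit, differed most at 1.30-fold lower (1.2 to 1.41), and SdhD, the other anchor, was 1.24-fold lower (1.15 to 1.35). The most counted, the flavoprotein gene SdhA, with 4542 reads with sucralose and 4450 in the control, had a fold of 1.0 (0.961 to 1.04).

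Genes for exchange of phosphate and ATP were lower in 4 of 5 cases over the floor, all 4 by at least 1.2-fold (median -0.40). Mpcp2, the main mitochondrial phosphate carrier, had 9668 reads with sucralose and 13453 in the control, 1.42-fold lower (1.38 to 1.46). Argk1, the arginine kinase that buffers ATP in muscle and neurons, was 1.32-fold lower (1.30 to 1.35). Mpcp2 and sesB, which bring in phosphate and ADP for ATP synthase, were thus both lower. sun, the epsilon subunit of ATP synthase, which the symbol rule leaves out, had 818 reads with sucralose and 944 in the control, 1.18-fold lower (1.07 to 1.29).

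Assembly factors passed the 1.2-fold mark no more often than genes at large. Most listed genes that maintain or read mitochondrial DNA were above 0, but mostly within counting error. Of 18 genes written for the assembly list of complexes III and IV, 9 had a matching symbol and 8 were over the floor. Of these 8, 5 were below 0. Coa7 alone passed the 1.2-fold mark, at 1.22-fold lower (1.06 to 1.40), as did 15.0% of all genes over the floor. The median of the list was -0.09. The most counted, Cchl, which attaches haem to cytochromes c, was 1.10-fold lower (1.01 to 1.2). The assembly genes Cox10, Cox11 and Cox17 were all below 0 and within 1.2-fold (median -0.23). Of 11 genes for mitochondrial DNA upkeep and transcription, 8 were above 0 (median 0.14), beside 4408 of all 8889 genes over the floor. Only for PolG1 did the interval exclude 1. The list was written with 18 genes, of which 15 had a matching symbol and 11 a row. The mitochondrial RNA polymerase gene PolrMT had 527 reads with sucralose and 466 in the control, a fold of 1.11 whose interval spans 1 (0.978 to 1.26), and PolG1, the DNA polymerase subunit, had 103 and 68 reads, 1.49-fold higher (1.08 to 2.05). mtTFB2, a transcription factor of mitochondrial DNA chosen here after its value was seen, had 65 reads with sucralose and 85 in the control (1.33-fold lower, 0.954 to 1.87). Of 8 regulators of respiratory genes, 7 were above 0 (median 0.17), among them the PGC-1 relative srl, 1.29-fold higher (1.06 to 1.57), and ewg, the fly NRF-1, 1.08-fold higher (1.0 to 1.16). The list was written with 11 regulators, of which 8 had a matching symbol, and the intervals of Ets97D and ERR span 1. Myc and ERR share 61.2% and 52.2% of their annotated exon bases with other genes. Among the upkeep genes, mtSSB and SLIRP2 share 71.5% and 25.1%. The medians of the members and of these regulators lay on opposite sides of 0 in this pair of libraries. Any link between them was not tested.

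**Figure D5:**
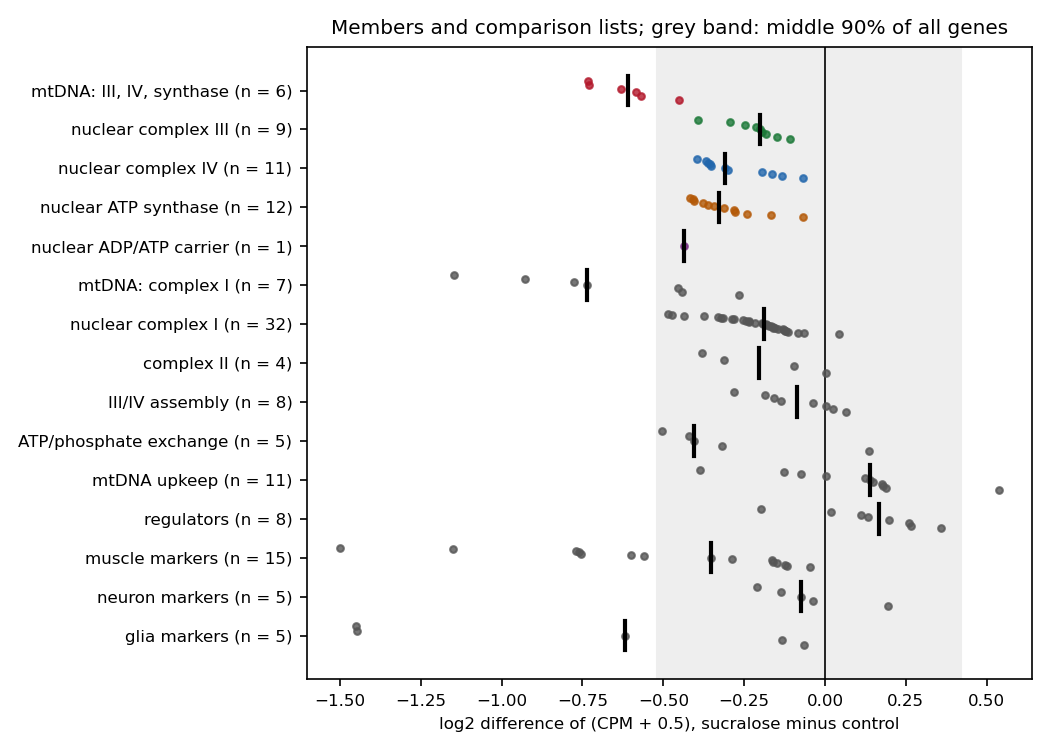
Log2 difference, sucralose minus control, of each gene over the 50-read floor for the members by genome and enzyme and for the comparison lists; black bars are medians and the grey band is the middle 90% of all genes over the floor. The 6 mitochondrial members centre at -0.61 and nuclear ATP synthase at -0.33, while genes for mitochondrial DNA upkeep centre at 0.14 and regulators at 0.17.

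Markers of cell types also differed between these libraries. Of 17 muscle markers, 16 were listed and 15 were over the floor, all 15 below 0 and 6 at least 1.5-fold lower (median -0.35). The list summed to 0.493% of reads with sucralose and 0.644% in the control, and TpnC4 had 6 and 5 reads. The gene wupA had no row under its current identifier. It may be counted under an older one, outside this sum and median. Mhc, the muscle myosin heavy chain and the most counted marker, was 1.47-fold lower (1.44 to 1.51), and Act88F, the flight muscle actin, differed most at 3.09-fold lower (2.11 to 4.60). The muscle sum was 1.31-fold lower, which lies between the nuclear members (1.25-fold) and the mitochondrial members (1.49-fold). Glial markers had a median of -0.62 (5 of 5 below 0; 0.126% of reads with sucralose, 0.201% in the control), neuronal markers -0.08 (4 of 5 below 0; 0.467% and 0.473%) and photoreceptor markers 0.50 (0 of 5 below 0; 5.85% and 4.10%). Among glial markers, alrm and Gat were both 2.74-fold lower and Gs2 1.53-fold lower. The intervals of repo (1.05-fold lower) and moody (1.10-fold lower) span 1. Gs2 held 10360 of the 13137 glial reads with sucralose. Among photoreceptor markers, Rh4, ninaE, Rh3 and norpA were 1.66-fold, 1.48-fold, 1.41-fold and 1.18-fold higher. The interval of trp spans 1 (0.989 to 1.02). ninaE held 498084 of the 610161 photoreceptor reads with sucralose. Fat body markers went both ways, 2 of the 4 over the floor below 0 and 2 above (median -0.21). Their sum was nearly level at 1.01-fold higher (0.507% of reads with sucralose, 0.499% in the control). With sucralose, apolpp alone held 50501 of its 52875 reads. Lsp2 was 5.64-fold lower (3.85 to 8.49) and Yp3 1.83-fold higher (1.65 to 2.03). Lsp2 shares 84.6% of its annotated exon bases with another gene. Gut markers had a median of -4.66, with all 6 at least 1.5-fold lower and LysC at 0 reads with sucralose. Defining genes of the head were present in both libraries: ninaE of photoreceptors had 498084 reads with sucralose and 330537 in the control, and elav of neurons 2760 and 2976. The part of these shifts in the differences of the members was not tested.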

How the data were processed

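Head RNA from 1 sucralose and 1 control library was extracted with Trizol and prepared by standard Illumina methods, per the labels' protocols. The authors deposited 1 table per library: raw counts of unique reads per gene, gene model length, coverage (percent of the model's bases covered) and RPKM, per the file headers. The deposited counts sum to the header totals (10429272 with sucralose, 10269436 in the control). Not given in the sources used here: aligner, genome build, annotation release, strandedness. Unique counting can lose reads of near-identical copies.

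FlyBase identifiers were matched to symbols through a table of gene names, and 496 of 12083 identifiers had no match. Genes were looked up by their current identifier, so a gene counted under an older one would be missed. Counts were scaled by the trimmed mean of M-values (TMM) in edgeR 4.0.16 (R 4.3.3), and log2 differences use CPM plus 0.5. Folds carry exact binomial (Clopper-Pearson) 95% intervals, and ratios of folds carry Woolf intervals; both cover counting error only, since PCR reads are not independent molecules. Exon sharing and the order of mitochondrial genes come from the BDGP6.54 annotation, used for no coordinates. Its gene models can differ from those in which the reads were counted. Intervals and summaries were computed in Python 3.11.15 (SciPy 1.17.1, numpy 2.4.6, pandas 2.3.3), and the fold and scaling code was checked on simulated data. Full values are given for all mitochondrial members and, per enzyme, the 3 most counted members and the highest and lowest difference, and for most lists of genes that work with the members the most counted gene and the largest difference; the Cox and cell type lists are given mainly by counts, medians and sums. The members and lists were chosen with earlier results of these data known. The Cox10, Cox11 and Cox17 list was added after the data were seen. A planned motif search in promoters was not run; promoter sequences were not used here. Alternatives were other scalings, pseudocounts and floors, the deposited RPKM, and members without shared exons.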

Additional observations from a re-analysis of the deposited data

How the results depend on the processing

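All 39 members over the floor stayed below 0 under every scaling (total counts, median centring, upper quartile, TMM without mitochondrial genes, DESeq2 1.42.0), both pseudocounts (0.1 and 5 CPM), a floor of 200 reads and the deposited RPKM, as did the 36 left when UQCR-14, UQCR-6.4 and ATPsyndelta, which share at least 20% of exon bases, were left out. Of 426 single values recomputed for members, 425 stayed within their counting interval and 426 below 0. Leaving out the floor, raising it to 200 reads or dropping shared members does not change a member's own value. The single values under those settings (39, 39 and 36) were thus fixed in advance and say nothing about stability. The number of nuclear members at least 1.2-fold lower was 19 under each scaling, 17 of 30 without the shared members and 21 of 43 with no floor. The mitochondrial sum, a fold of 0.671, was 0.675 with upper quartile factors, 0.677 with DESeq2 size factors and 0.660 as a ratio of summed RPKM. The nuclear median of -0.29 was -0.28 with DESeq2 size factors and -0.26 with no floor. The nuclear median exceeded the mitochondrial one by 0.31, and by 0.35 with no floor, where 46 of 49 listed members were below 0. Pseudocounts do not enter the summed folds. No paired analysis was possible because each diet has 1 library, and for the same reason no library could be left out.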
